A study of Mus musculus with 8 samples.

Results

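The genes examined here are 10 genes of the general transcription factors TFIID and TFIIA and their relatives. The germ cell forms are Tbpl2, Tbpl1, Taf4b, Taf7l and Gtf2a1l, and the broadly expressed genes are Tbp, Taf1, Taf7, Gtf2a1 and Gtf2a2. Tbpl1 is counted as a germ cell form for its role in spermatids, and its expression is not taken to be limited to germ cells. The 10 genes are a list of names, picked with earlier results of these data known and with no rule on their values. All 10 were found among the 21959 genes of the expression table. The table covers RNA of mouse oocytes on the first day after birth (P1), in 4 wild-type libraries and 4 libraries from mice in which Rbpms2, which encodes an RNA-binding protein, was knocked out. Each library was made from 1 tube of 5 to 10 cells picked by hand as putative primordial oocytes, and its RNA was amplified over 18 cycles. The labels give no strain and no sex, and do not say which bases of Rbpms2 were removed or whether the loss was limited to germ cells. Nor do they tie each tube to an animal of its own. The p-values below thus reflect only how tubes differ from one another, and that variation could be technical. Fewer cells of a type and less RNA per cell cannot be told apart in these libraries.

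TFIID is the complex that recognises the core promoter of genes read by RNA polymerase II. It consists of TATA-binding protein (TBP) and a set of TBP-associated factors (TAFs), and TFIIA holds TBP on the DNA. Germ cells make variants of several of these proteins. TBPL2, also known as TBP2 or TRF3, takes the place of TBP in growing oocytes and is required there for transcription and female fertility, TAF4B is needed for the ovarian reserve, and TAF7L and GTF2A1L are best known from the testis.

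Both the largest fall and the largest rise among these genes were in germ cell forms. Tbpl2 was read in every wild-type library and gave no read in any knockout library, and Taf7l was 24.7-fold higher in the knockout. The ubiquitous TFIIA genes Gtf2a1 and Gtf2a2 were about 2-fold higher in the knockout, Gtf2a1l was 4.47-fold lower, and Tbp, Tbpl1, Taf4b and Taf1 did not pass the test. Gtf2a1 did not pass with a correction for transcript GC content. The ranges of Gtf2a1l overlapped between genotypes, and it did not pass without wild-type library 4. Levels are given in FPKM, fragments per kilobase of exon, scaled to the mapped reads of the library. The test was limma on log2(FPKM + 1), with Benjamini-Hochberg adjusted p under 0.05 over the 11235 genes that reached 1 FPKM in at least 4 libraries. In all, 4 of the 10 genes were called higher and 2 lower, that is 6 called where 43.4% of all tested genes were. The background was 17.7% called higher and 25.6% called lower (1991 and 2880 genes), and the balance between these depended on scaling, with 2312 higher and 2506 lower under median-of-ratios scaling and 2503 and 2511 under quantile scaling. The 10 genes had a median log2 fold change of 0.48, against -0.12 over all tested genes, but with a correction for transcript GC content the medians were -0.05 and -0.13. For 5 of the 10, every library of one genotype lay above every library of the other, against 39.9% of all tested genes. Of the 10, 9 passed the filter in both genotypes, and Tbpl2 passed through wild type alone.

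The targeted gene checks the labels. Rbpms2 stood between 135.8 and 212.8 FPKM in wild type and between 31.0 and 58.3 FPKM in the knockout, a log2 fold change of -1.98 (SE 0.22, limma adjusted p = 7.26e-05). Depth, recovered from the table as reads in listed genes, ranged from 8310773 to 11926920 in wild type and from 9554087 to 14526327 in the knockout. The 7 germ cell and oocyte markers summed to 2104 to 3351 FPKM in wild type and 626.2 to 1309 FPKM in the knockout. Of these 7, 5 were called lower (Kit, Figla, Nobox, Zp3 and Gdf9) and 2 higher (Ddx4 and Dazl). Zp3 was at 0 in knockout libraries 1 and 2, and at 0.444 and 0.158 FPKM in knockout libraries 3 and 4. Gdf9 stood at 0.051 to 0.968 FPKM in the knockout. Somatic markers were also present: the 8 granulosa cell markers summed to 1.63 to 53.8 FPKM in wild type and 9.65 to 324.0 FPKM in the knockout, and the 7 stromal markers to 3.34 to 70.3 and 7.51 to 307.4 FPKM. The 8 immune cell markers summed to 5.18 to 12.9 FPKM in wild type and 15.5 to 292.4 FPKM in the knockout, without overlap. Single immune markers could overlap, as did C1qb, at 3.485 to 11.1 FPKM in wild type and 0.314 to 82.0 FPKM in the knockout. The 6 endothelial markers summed to 1.04 to 2.66 and 3.03 to 117.9 FPKM, also without overlap. The 6 erythroid markers summed to 11.9 to 5354 and 99.6 to 3212 FPKM. The 6 surface epithelial markers summed to 1.54 to 18.5 and 6.37 to 181.4 FPKM, and the 5 smooth muscle markers to 6.67 to 18.3 and 0.746 to 9.0 FPKM. No marker in any list was at 0 in every library. Wild-type library 3 and knockout libraries 2 and 3 were the richest in granulosa and stromal markers. Results for the 10 genes were also computed without these 3 libraries, below called rich in somatic markers. That fit kept knockout library 1, with 117.9 FPKM of endothelial markers, and wild-type library 1, with 4211 FPKM of erythroid markers. The part of these cells in the results was not tested beyond those values.

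**Figure D1:**
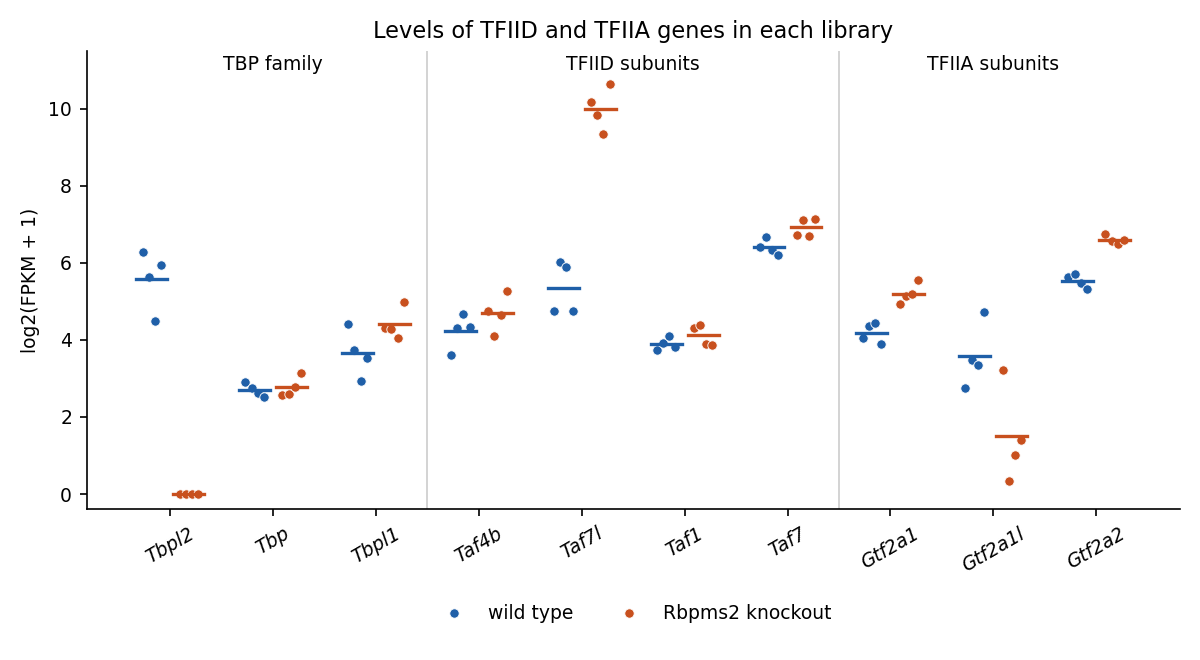
Level of the 10 TFIID and TFIIA genes in each library as log2(FPKM + 1), with wild type in blue and the Rbpms2 knockout in orange; each point is 1 library and each bar is a genotype mean of the log2 values. Tbpl2 is at 21.7 to 76.8 FPKM in wild type and at 0 in the 4 knockout libraries, and Taf7l lies at 25.9 to 63.8 FPKM in wild type and 649.9 to 1586 FPKM in the knockout.

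The stretches just before the annotated starts of the gene that fell the most and the gene that rose the most are shown here, since these genes moved in opposite directions. Both are the 250 bases before the start, taken from the RefSeq promoter table for GRCm38.p6 and written 5′ to 3′ on the gene's own strand. Capitals mark E-boxes (CANNTG, the sequence bound by basic helix-loop-helix proteins such as FIGLA) and TATA boxes (TATAAA), searched on both strands. The Tbpl2 window is at chr2:24096596-24096845 on the minus strand, and the Taf7l window is at chrX:134476491-134476740 on the minus strand.
Tbpl2: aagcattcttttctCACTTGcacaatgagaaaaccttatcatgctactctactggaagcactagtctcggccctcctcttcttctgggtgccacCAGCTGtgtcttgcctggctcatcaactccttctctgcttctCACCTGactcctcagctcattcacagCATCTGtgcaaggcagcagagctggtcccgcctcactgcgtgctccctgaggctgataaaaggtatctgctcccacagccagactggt
Taf7l: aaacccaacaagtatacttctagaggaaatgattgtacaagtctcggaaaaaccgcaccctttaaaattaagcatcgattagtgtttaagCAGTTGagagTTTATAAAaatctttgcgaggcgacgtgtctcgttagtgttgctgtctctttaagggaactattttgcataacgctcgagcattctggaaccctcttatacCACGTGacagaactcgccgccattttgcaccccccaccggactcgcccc
The Tbpl2 window held 4 E-boxes, at 236, 156, 114 and 88 bases before the start. At least 1 E-box was present in 66.2% of the 32851 windows of this length, and 4 or more in 3.84%. The Taf7l window held 2 E-boxes, at 160 and 49 bases before the start. It also held 2 overlapping TATAAA matches, 1 on each strand, at 150 and 148 bases before the start. A TATAAA on either strand was present in 12.4% of all windows. Neither window held TAATTG or TAATTA, sequences bound by homeodomain proteins such as NOBOX (7.17% and 4.84% of all windows), or the GC box GGGCGG (32.7%). The table held windows for 8 of the 10 genes, all but Taf4b and Taf7. The E-box count was 1 in every other member's window, including both windows of Gtf2a1, except that of Gtf2a1l, which had none. GC boxes were held by the windows of Gtf2a1l (1), Tbp (1), Tbpl1 (2) and Taf1 (2), and 1 TATAAA match by that of Gtf2a2. These matches describe the letters of the windows and show no binding.

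Of the 3 TBP family genes, Tbpl2 was called lower and the others were not called. Tbpl2 (chromosome 2, 24071721 to 24096595, minus strand, GRCm38) stood at 76.8, 48.5, 21.7 and 60.7 FPKM in wild-type libraries 1 to 4, a mean of 51.9 ± 23.3 (SD, n = 4). It was listed at 0 in each of the 4 knockout libraries. In reads, this was 2879 over the wild-type libraries and 0 over the knockout libraries. The 2 genotypes therefore did not overlap, and wild-type library 3, the lowest of its group, was also the wild-type library with the most granulosa and stromal marker RNA. A count of 0 allows up to 3 reads, which over the 4 knockout libraries comes to 0.0456 FPKM, so Tbpl2 was at least 1139-fold lower in the knockout. In single knockout libraries the same limit is 0.150 to 0.227 FPKM, and these limits cover counting error only. The fitted log2 fold change was -5.59 (SE 0.36, limma adjusted p = 2.25e-06), a value that depends on the pseudocount of 1. The exact two-sided permutation p was 0.0286, the smallest that 4 against 4 libraries can give. Tbpl2 had the 26th largest fall of the 11224 tested genes with an annotated chromosome. It passed the filter through wild type alone and was at 0 in every knockout library. The fitted value and this rank therefore restate its wild-type level, and the p-values are given as a description. Without the 3 libraries rich in somatic markers its log2 fold change was -5.95.

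Tbp encodes the general TATA-binding protein, which also serves RNA polymerases I and III. It stood at 6.53, 5.74, 5.11 and 4.74 FPKM in wild type and at 4.91, 5.09, 5.89 and 7.89 FPKM in the knockout. The ranges overlapped, and the log2 fold change was 0.08 (SE 0.24, limma adjusted p = 0.822). With the GC correction the value was -0.45 (adjusted p = 0.143), on the other side of 0. Of the exon length annotated for Tbp, 19.0% (2582 bases) is shared with Pdcd2 on the opposite strand, and whether reads were assigned by strand is not given in the sources used here. Tbpl1, also called TLF or TRF2, encodes a TBP relative that does not bind the TATA box and is required for spermatid development. Its levels were 20.4, 12.3, 6.63 and 10.5 FPKM in wild type and 18.9, 18.5, 15.7 and 30.5 FPKM in the knockout. Wild-type library 1 lay within the knockout range, and the other wild-type libraries lay below it. The log2 fold change was 0.76 (SE 0.32, limma adjusted p = 0.0816), and without wild-type library 1 it was 1.01 with an adjusted p of 0.0245. It was 0.31 under the GC correction (adjusted p = 0.441). Tbpl1 shares 407 exon bases with Slc2a12 on the opposite strand.

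The TAFs of TFIID gave 1 large change, in Taf7l. Taf7l, the X-linked relative of Taf7 (X chromosome, 134460118 to 134476490, minus strand, GRCm38), stood at 25.9, 63.8, 58.2 and 25.9 FPKM in wild-type libraries 1 to 4, a mean of 43.4 ± 20.4 (SD, n = 4). In the knockout it stood at 1158, 905.2, 649.9 and 1586 FPKM, a mean of 1075 ± 399.0 (SD, n = 4). The lowest knockout library, number 3, was above the highest wild-type library by more than the whole wild-type range. It was also the knockout library with the most granulosa and stromal marker RNA. Within wild type, library 3 was the richest in these markers and stood at 58.2 FPKM, and library 1 was the poorest, at 25.9 FPKM. The reads numbered 3704 in wild type and 111396 in the knockout. The log2 fold change was 4.64 (SE 0.36, limma adjusted p = 6.38e-06), and the exact permutation p was again 0.0286. Without the 3 libraries rich in somatic markers it was 5.23, and with the GC correction 4.20. Taf7l had the 27th largest rise of the 11224 genes. Of the 467 tested X-linked genes 38.5% were called higher and 15.8% lower, and of the 10741 autosomal genes 16.8 and 26%, with median log2 fold changes of 0.52 and -0.14. The part of X linkage in the Taf7l difference was not tested.

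Taf7, the autosomal counterpart on chromosome 18, is an intronless gene whose protein binds TAF1 and restrains its enzyme activity. It stood at 83.6, 100.8, 79.6 and 73.2 FPKM in wild type and at 104.7, 136.9, 102.3 and 140.2 FPKM in the knockout. The ranges did not overlap, but were separated by less than the spread within either genotype. The log2 fold change was 0.51 (SE 0.18, limma adjusted p = 0.0423). This call was lost under the GC correction, where the value was -0.23 (adjusted p = 0.343), and without the 3 libraries rich in somatic markers (0.50, adjusted p = 0.0961). It was also lost when wild-type library 1, 3 or 4, or knockout library 1, 2 or 4, was left out, with log2 fold changes of 0.44 to 0.57 and adjusted p from 0.0501 to 0.115. With no filter, quantile scaling, eBayes without trend or array weights the value was 0.42 to 0.51 and the adjusted p 0.0514 to 0.0858. Taf1, the X-linked gene of the largest TFIID subunit, on which TAF7 sits, stood at 12.4, 14.0, 16.2 and 13.0 FPKM in wild type and 18.9, 20.0, 13.9 and 13.5 FPKM in the knockout. Knockout libraries 3 and 4 lay within the wild-type range, and the log2 fold change was 0.22 (SE 0.21, limma adjusted p = 0.419). Under the GC correction it was -0.24 (adjusted p = 0.427).

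Taf4b, on chromosome 18, encodes the gonad-enriched form of the scaffold subunit TAF4. It stood at 11.3, 18.9, 24.6 and 19.2 FPKM in wild type and 25.9, 16.1, 24.1 and 37.5 FPKM in the knockout. The ranges overlapped, and the log2 fold change was 0.45 (SE 0.30, limma adjusted p = 0.236). The value moved in both directions with the processing. It was 0.14 under the GC correction (adjusted p = 0.743), 0.25 without wild-type library 1 and 0.26 without knockout library 4, and it was 0.92 without the 3 libraries rich in somatic markers (adjusted p = 0.0403). Its general counterpart Taf4, in contrast, fell: its levels were 4.88, 5.34, 9.31 and 5.64 FPKM in wild type and 1.37, 1.5, 3.20 and 0.860 FPKM in the knockout. Every knockout library was below every wild-type library, and the log2 fold change was -1.45 (SE 0.33, limma adjusted p = 0.00463), or -0.84 under the GC correction (adjusted p = 0.0446).

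TFIIA is built from a large precursor, encoded by Gtf2a1 or in germ cells by Gtf2a1l, which is cut into an alpha and a beta chain, and from the gamma chain encoded by Gtf2a2. Gtf2a2 (chromosome 9, 70012550 to 70022866, plus strand, GRCm38) stood at 48.7, 51.0, 43.3 and 38.6 FPKM in wild type and 106.3, 92.9, 88.9 and 95.1 FPKM in the knockout. The 2 groups were far apart relative to their spread, with means of 45.4 ± 5.55 and 95.8 ± 7.48 (SD, n = 4 each). The log2 fold change was 1.07 (SE 0.17, limma adjusted p = 0.000529), and 1.09 with the GC correction. Gtf2a1 (chromosome 12, 91555262 to 91590487, minus strand) stood at 15.4, 19.7, 20.8 and 14.0 FPKM in wild type and 29.6, 34.0, 35.7 and 45.5 FPKM in the knockout. Again no knockout library reached down to the wild-type range, and the fold was 2.07. The log2 fold change was 1.01 (SE 0.21, limma adjusted p = 0.00319), and under the GC correction it was 0.36 with an adjusted p of 0.183.

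Gtf2a1l, also called ALF (chromosome 17, 88668660 to 88715152, plus strand), went the other way, with wide spread in both genotypes. It stood at 5.72, 10.1, 9.16 and 25.5 FPKM in wild type and 8.33, 0.255, 1.02 and 1.66 FPKM in the knockout. Wild-type library 4 and knockout library 1 were each the highest of their genotype, and knockout library 1 lay within the wild-type range. The reads numbered 864 in wild type and 244 in the knockout, of which 184 were in library 1. The log2 fold change was -2.08 (SE 0.60, limma adjusted p = 0.0163), and the exact permutation p was 0.0571. The call was lost without wild-type library 4 (-1.69, adjusted p = 0.0551) and without the 3 libraries rich in somatic markers (-1.33, adjusted p = 0.146). Tasp1, which encodes the protease that cuts the TFIIA precursor, was higher in the knockout, at 13.6 ± 3.92 FPKM against 5.31 ± 2.88 (SD, n = 4 each), with a log2 fold change of 1.29 (SE 0.36, limma adjusted p = 0.0149).

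Each germ cell form was set beside its general counterpart in the same library. For 4 of the 5, all but Tbpl1, the shares of the pair did not overlap between genotypes. No background over other pairs was computed, and 39.9% of all tested single genes did not overlap, so nothing is read from this count. By their own levels Taf4b and Gtf2a1l overlapped, so their shares also reflect the lower Taf4 and the higher Gtf2a1. Shares are percentages of the summed FPKM of both genes, without GC correction, and carry no test. Tbpl2 made up 92.2, 89.4, 80.9 and 92.8% of the Tbpl2 and Tbp sum in wild type and 0% in each knockout library. Taf7l made up 23.6, 38.8, 42.2 and 26.1% of the Taf7l and Taf7 sum in wild type and 91.7, 86.9, 86.4 and 91.9% in the knockout. Thus Taf7 was the more abundant RNA of its pair in every wild-type library and Taf7l in every knockout library. Taf4b made up 69.8 to 77.9% of the Taf4b and Taf4 sum in wild type and 88.3 to 97.8% in the knockout. The GC correction made both log2 fold changes of this pair smaller, from 0.45 to 0.14 for Taf4b and from -1.45 to -0.84 for Taf4. Gtf2a1l made up 27.1, 33.8, 30.6 and 64.6% of the Gtf2a1l and Gtf2a1 sum in wild type and 22.0, 0.745, 2.79 and 3.52% in the knockout, so that only wild-type library 4 held more Gtf2a1l than Gtf2a1. For Tbpl1 beside Tbp the ranges overlapped, at 56.4 to 75.7% and 72.7 to 79.4%.

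The size of the TBP shares depends on the length assumed for Tbp. The deposited values divide by all annotated exon bases of a gene, 13576 for Tbp, whereas its shortest full coding transcript has 1891 bases. With every gene put on its shortest full coding transcript, the wild-type mean of Tbp was 39.7 FPKM in place of 5.53, and Tbpl2 made up 54.3 ± 12.3% of the pair (SD, n = 4), from 37.1 to 64.1%. On that scale Tbpl2 outweighed Tbp in 3 of the 4 wild-type libraries. The share in the knockout was still 0%. The Tbpl1 share of its sum with Tbp moved likewise, from 67.3 ± 8.0 to 44.5 ± 8.73% in wild type, whereas the Taf7l share went from 32.7 ± 9.19 to 36.0 ± 9.63% (SD, n = 4 each).

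**Figure D2:**
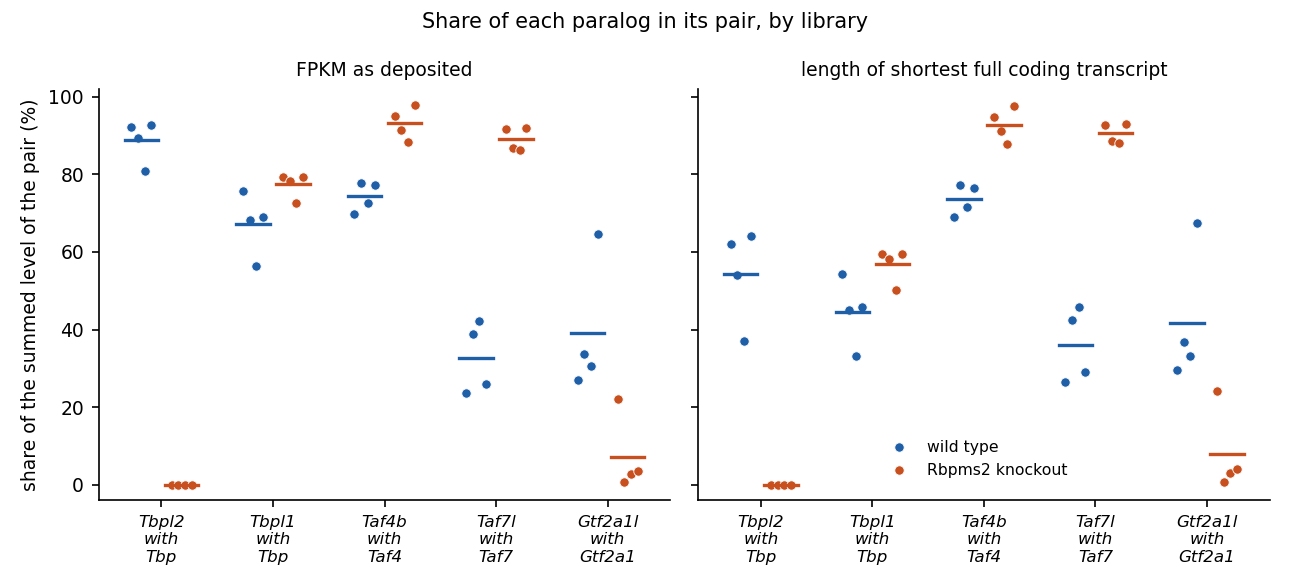
Share (%) of each germ cell form in the summed level of itself and its general counterpart, per library, with FPKM as deposited on the left and rescaled to the shortest full coding transcript on the right; each point is 1 library and each bar is a genotype mean. Tbpl2 drops to 0% in the knockout on both scales. On the left, Taf7l lies at 23.6 to 42.2% in wild type and 86.4 to 91.9% in the knockout, whereas the Tbpl1 ranges overlap.

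The order of the 10 levels also changed between genotypes. On the deposited per-length scale Taf7 was the highest in wild type (84.3 ± 11.8 FPKM, SD, n = 4), followed by Tbpl2, Gtf2a2 and Taf7l, and the range of each of these overlapped that of the next. After a gap came Taf4b (18.5 FPKM), Gtf2a1 (17.5), Taf1 (13.9), Gtf2a1l (12.6) and Tbpl1 (12.5), whose neighbouring ranges overlapped, and Tbp (5.53) was the lowest. In the knockout Taf7l was first at 1075 FPKM, apart from Taf7 (121.0) and Gtf2a2 (95.8). Below these were Gtf2a1 (36.2), Taf4b (25.9), Tbpl1 (20.9) and Taf1 (16.6), with overlapping neighbours, then Tbp (5.94) and Gtf2a1l (2.82), which overlapped each other, and Tbpl2 at 0. On the scale of the shortest full coding transcript Gtf2a2 was the highest in wild type (205.7 FPKM), and Taf7l stayed the highest in the knockout (1248 FPKM).

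For 5 of the germ cell forms the tested genes with the most similar pattern over the 8 libraries were sought by Pearson's r of log2(FPKM + 1), a measure that mostly reflects the gap between genotypes and is given as a description. Tbpl2 was most like Astl (r = 0.9997), the gene of the egg cortical protease ovastacin, then Psg17 (0.9994) and Oas1c (0.9991). Astl averaged 32.4 FPKM in wild type and 0 in the knockout, and Oas1c 73.7 and 0.0349 FPKM. Taf7l was most like Tex13c2 (r = 0.996), Dmrtc2 (0.994) and Pet2 (0.993). These genes were low in wild type, at 0.406, 0.732 and 5.16 FPKM, and reached 50.4, 104.0 and 115.0 FPKM in the knockout. For the others the closest genes were Zbtb24 for Tbpl1 (r = 0.986), Pomc for Taf4b (0.967) and Klhl8 for Gtf2a1l (0.979), the last at 21.1 FPKM in wild type and 9.10 FPKM in the knockout.

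The rest of the machinery around these genes changed in both directions. Of 105 further genes of TFIID, SAGA, the TBP regulators, the other general factors, RNA polymerase II and Mediator, 103 were tested. Of these, 26 were called higher and 29 lower, or 53.4%, with a median log2 fold change of 0.01. Over all tested genes 43.4% were called, 17.7% higher and 25.6% lower, so the share of lower genes was near the background. An absolute log2 fold change of 4 or more was seen in none of the 103 and in 1.39% of all tested genes, so nothing is read from this count.

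**Figure D3:**
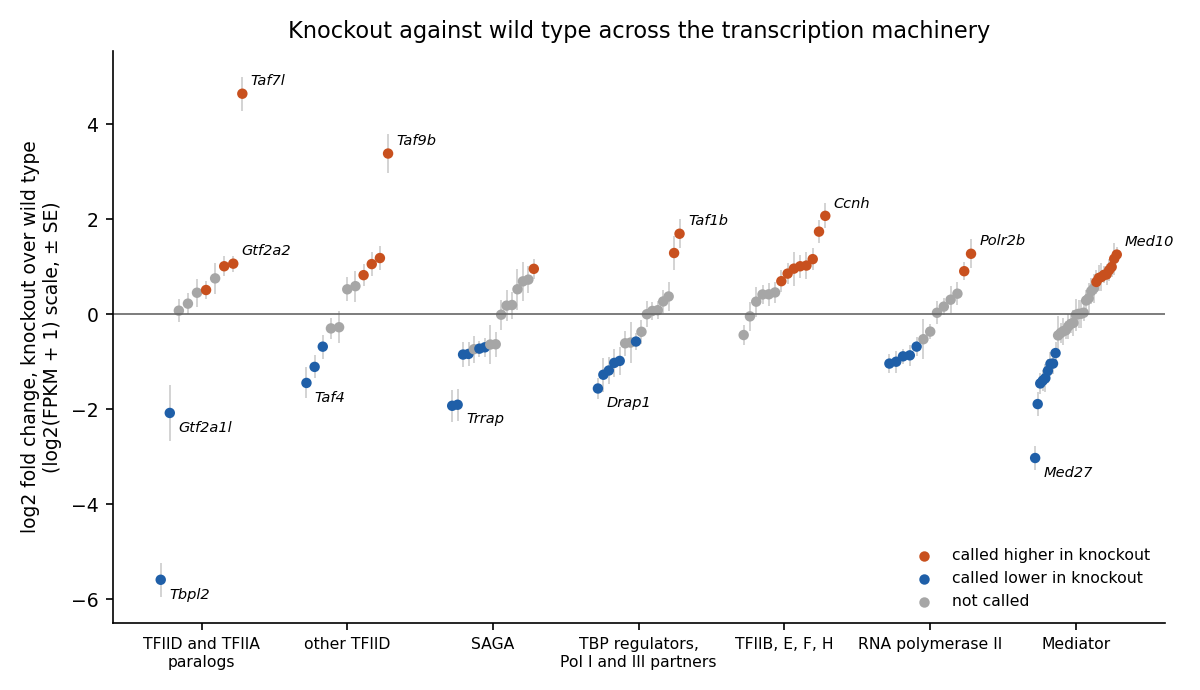
Log2 fold change, knockout over wild type, on the log2(FPKM + 1) scale for each tested gene of the transcription machinery, by complex; bars are SE, and colour gives the limma call at an adjusted p of 0.05. Tbpl2 (-5.59) and Taf7l (4.64) lie outside the span of every other group, which runs from -3.03 for Med27 to 3.38 for Taf9b.

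Of the other TFIID subunits, 4 of 11 tested were higher (Taf9b, Taf11, Taf13 and Taf12) and 3 lower (Taf4, Taf10 and Taf5). Their median was 0.53, and 0.13 under the GC correction. Over all tested genes the shares were 17.7% higher and 25.6% lower. Taf9b, the X-linked relative of Taf9, stood at 24.0, 13.0, 5.10 and 21.7 FPKM in wild type and 140.8, 169.4, 102.1 and 229.9 FPKM in the knockout, a 10.1-fold difference without overlap (log2 fold change 3.38, SE 0.42, limma adjusted p = 0.000129). Taf9 itself was listed at 0 in all 8 libraries. As 73.8% of its exon length is shared with Ak6 on the same strand, that value is uncertain. Taf11 and Taf13, whose proteins pair through histone folds, had log2 fold changes of 1.18 and 1.06, and Taf12, the histone-fold partner of TAF4 and TAF4B, named after its values were seen, of 0.82. Taf13 was not called under the GC correction (0.43, adjusted p = 0.15). Taf10, shared by TFIID and SAGA, was at -1.11. The Taf5 call (-0.68, adjusted p = 0.0496) was lost under most alternatives, with adjusted p up to 0.299.

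Among 16 SAGA subunits, the co-activator that shares TAFs with TFIID, 1 was higher and 6 lower, with a median of -0.64 that was -0.15 under the GC correction, close to the -0.13 of all tested genes. Among all tested genes 17.7% were called higher and 25.6% lower. Trrap, the scaffold that binds activators, fell from 17.2 ± 2.15 to 4.38 ± 3.11 FPKM (SD, n = 4 each; log2 fold change -1.90, limma adjusted p = 0.0012), and Taf6l, the SAGA-specific relative of Taf6, from 5.75 ± 2.05 to 0.773 ± 0.587 FPKM (-1.93). Eny2, of the deubiquitinase module, was at -0.72, and Supt20, a core subunit, at 0.96. With the GC correction Taf6l was at -1.18 and Eny2 at -1.48, 3 SAGA genes were lower in place of 6, and 1 was higher.

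Of 16 TBP regulators and TBP partners at RNA polymerases I and III, 2 were higher and 6 lower, with a median of -0.47. The background over all tested genes was 17.7% higher and 25.6% lower. Drap1, a subunit of the NC2 complex that blocks TFIIA and TFIIB from joining TBP, fell from 128.3 ± 35.7 to 41.4 ± 3.16 FPKM (SD, n = 4 each; log2 fold change -1.56, limma adjusted p = 0.000338). Its log2 fold change was -0.87 under the GC correction (adjusted p = 0.00651). Taf1b, of the RNA polymerase I factor SL1, rose from 24.0 ± 9.20 to 77.6 ± 21.1 FPKM (1.70, adjusted p = 0.00127). Snapc4 and Snapc2, subunits of the factor for small nuclear RNA genes, were at -1.18 and -1.02, and under the GC correction Snapc4 was at -0.77 (adjusted p = 0.0422) and Snapc2 was not called (-0.45, adjusted p = 0.227).

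TFIIB, TFIIE, TFIIF and TFIIH act after TFIID. Of their 15 genes 14 were tested, and 8 were called higher and 0 lower by limma, beside 17.7% and 25.6% of all tested genes. The counts of this list were the same at an unadjusted p under 0.05, and its median was 0.78. Under the GC correction 4 were higher and 1 lower, with a median of 0.48. Ccnh, the cyclin of the TFIIH kinase, rose from 34.8 ± 13.3 to 145.6 ± 34.0 FPKM (SD, n = 4 each; log2 fold change 2.07, limma adjusted p = 0.000148). Gtf2h1, a core TFIIH subunit, was at 1.74, and Gtf2e1, of TFIIE, at 1.16. The kinase partners of cyclin H, Cdk7 and Mnat1, were named after their values were seen. Their log2 fold changes were 1.01 and 0.86, and neither was called under the GC correction (adjusted p = 0.0981 and 0.317).

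Of 13 RNA polymerase II subunits, 2 were higher and 5 lower, with a median of -0.37. Here and for Mediator below, the background over all tested genes was 17.7% higher and 25.6% lower. Polr2b, which encodes the second largest subunit, was at 1.27 and Polr2g at 0.91, whereas Polr2l (-1.04), Polr2e (-1.0) and Polr2i (-0.89), which encode small subunits, fell. Under the GC correction 3 were lower, and Polr2e and Polr2i were not called (adjusted p = 0.187 and 0.0504). Of 33 Mediator subunits, 9 were higher and 9 lower, with a median of -0.01. Med27 fell from 90.2 ± 17.1 to 10.4 ± 3.59 FPKM (SD, n = 4 each; log2 fold change -3.03, limma adjusted p = 1.22e-05), the largest fall among the 103 genes. Med11 and Med25 were at -1.89 and -1.46, and Med10, Med4 and Med21 at 1.26, 1.0 and 0.83. Under the GC correction 5 Mediator genes were higher and 8 lower, Med11 and Med25 were at -1.19 and -0.94, and Med21 was not called (0.16, adjusted p = 0.497).

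Transcript base composition moved with part of these results. The TFIID and TFIIA genes have transcripts of 39.6 to 50.3% GC, and a loess correction of the log2 values for transcript GC in each library lowered the fold change of 8 of the 10, from a shift of -0.32 for Taf4b to one of -0.74 for Taf7, the gene with the lowest GC content of the 10. Gtf2a1l and Gtf2a2, with the highest, shifted by 0.04 and 0.02. After the correction 2 genes were called higher (Taf7l and Gtf2a2) and 2 lower (Tbpl2 and Gtf2a1l), and the signs of Tbp, Taf1 and Taf7 turned. Why GC content moved with genotype was not tested.

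**Figure D4:**
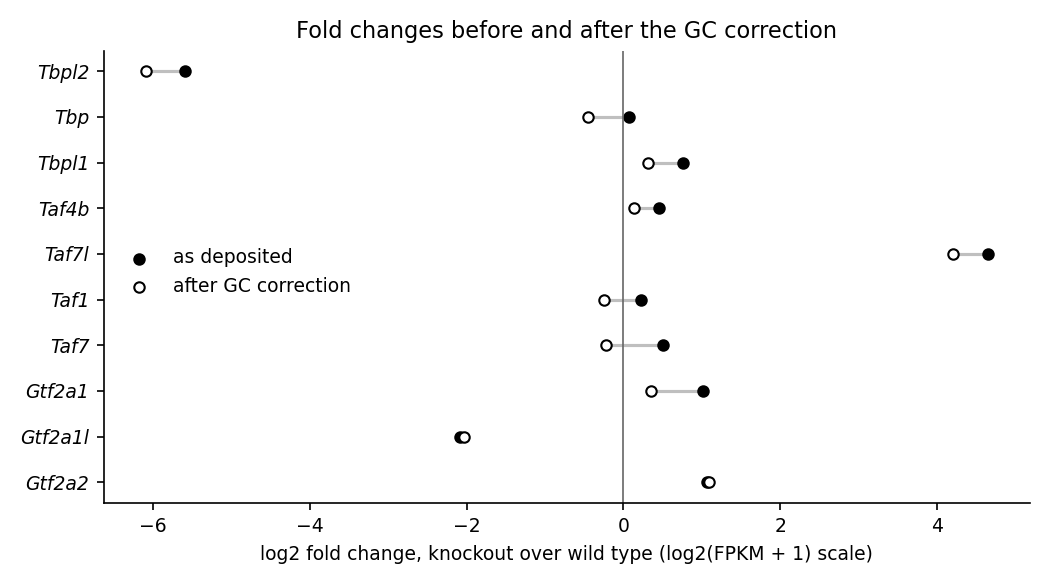
Log2 fold change of the 10 genes, knockout over wild type, as deposited and after the correction for transcript GC content. Tbpl2 (-5.59 and -6.09) and Taf7l (4.64 and 4.20) keep their size, and Taf7 (0.51 and -0.23) and Gtf2a1 (1.01 and 0.36) are called without the correction alone.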

How the data were processed

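The authors deposited 1 table of FPKM values for all 8 libraries. Per the submitters' processing notes, cutadapt, HISAT2, HTSeq and GRCm38 (mm10) were used, with versions not stated there. The FPKM values fit division by the union of annotated exons (GENCODE M21, lengths for 21902 of 21959 genes): 97.5 to 97.6% of the values above 0 gave whole reads within 0.02. Symbols matched 21851 genes. PCR without molecular identifiers means that floors cover counting error only.

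Genotypes were taken from the labels, and the genes and lists were chosen with earlier results of these data known. Log2(FPKM + 1) was fitted with limma 3.58.1 in R 4.3.3 (eBayes with trend) over all 8 libraries. Genes reaching 1 FPKM in at least 4 libraries were kept, and the fit was tested on simulated data. Exact permutation tests covered all 70 splits. Named genes were the 10 members, Rbpms2, Taf4, Tasp1, up to 3 called genes with the smallest p per direction in each other list, and the 3 genes most like each germ cell form, predicted genes left out. Libraries of 1 genotype differed by more than sampling noise (the smallest chi-square was 33.6 times its degrees of freedom), so none was counted as a duplicate. Alternatives covered the pseudocount, filter, scaling, GC correction, replicate block, variance model, array weights, left-out libraries and, added after the data were seen, gene length. A planned protein comparison was not run. Python 3.11.15 with numpy 2.4.6, pandas 2.3.3 and matplotlib 3.10.9 was used for the rest.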

Additional observations from a re-analysis of the deposited data

Results flagged for a closer look

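Among the 40 named genes, 79 genotype groups of 4 libraries were searched for a single library far from the others (Dixon's test at the 95% level), and chance flags about 1 in 20 groups. None of the 10 TFIID and TFIIA genes was picked out, and 2 other groups were. Gtf2a1l in the knockout fell just under the cut-off, at 8.33 FPKM in library 1 against 0.255, 1.02 and 1.66 FPKM in the other knockout libraries. Taf5 stood at 20.3 FPKM in wild-type library 1, against 39.6, 40.8 and 41.2 FPKM in the other wild-type libraries. Snapc2 stood at 38.3 FPKM in knockout library 2, against 16.7, 18.9 and 19.2 FPKM in the other knockout libraries.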

How the results depend on the processing

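The calls of Taf7l and Gtf2a2 held under all 22 alternatives each. So did that of Tbpl2, but Tbpl2 was at 0 in every knockout library. Its call therefore restates its wild-type level and is given as a description. The log2 fold changes ran from -8.88 to -3.40 for Tbpl2, both ends set by the pseudocount (0.1 and 5), and from 4.20 to 5.23 for Taf7l. The Tbpl2 change relative to Tbp was -5.67 on the log2 scale, -8.97 with a pseudocount of 0.1 and -3.45 with 5. Under the GC correction 2 of the 10 genes were higher, as with the replicate block added, and the values of Tbp (-0.45), Taf1 (-0.24) and Taf7 (-0.23) turned in both. With 1 library left out in turn the Tbp value ran from -0.049 (without knockout library 4) to 0.148. Without the 3 libraries rich in somatic markers 1 of the 10 was lower. The higher counts of 2 SAGA genes came from median-of-ratios and quantile scaling, eBayes without trend and leaving out those 3 libraries. SAGA genes lower numbered 3 under median-of-ratios scaling and both GC fits. TFIIB, TFIIE, TFIIF and TFIIH genes higher numbered 4 under the GC correction, and 1 was lower in both GC fits, with array weights and without the 3 libraries. RNA polymerase II genes lower numbered 3 in both GC fits, and Mediator genes higher 5 under the GC correction and 4 with the block added. The causes were not tested.

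Leaving out 1 library at a time gave 1516 to 1949 higher and 2393 to 3011 lower genes in all. It gave 3 to 4 members higher and 1 to 2 lower, the 1 without wild-type library 4. For TFIIB, TFIIE, TFIIF and TFIIH 0 to 1 gene was lower, the 1 without knockout library 3. For Mediator 5 to 10 genes were higher, the 5 without knockout library 1. Median-of-ratios and quantile scaling moved the median of all genes by 0.12 and 0.17, and turned the direction of none of the 10 genes. Genotypes share replicate numbers in the labels, but same-numbered libraries correlated between -0.05 and 0.36 and 3 of 8 correlated best with their own number, so the numbers were not taken as pairs. With the replicate block alone 2113 genes were higher and 2921 lower, with 4 and 2 members. Of the named genes, it ended the Taf5 call (adjusted p = 0.061) and changed no other call. What depth limits is the bound on Tbpl2, set by 0 knockout reads.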
